A study of Daucus carota with 6 samples.

Results

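Shredded carrot (Daucus carota) lists 117 small RNA names of animal or viral type that were at 0 in both libraries made without storage and above 0 in at least 1 library made after storage. They are 117 of the 298 names of that type in a table of 469 names. They were chosen by their measured values, namely 0 in both libraries at T0 and a value above 0 at T24 or T48, so that their absence at T0 is the choice itself and not a result. Of the other names of animal type, 137 were above 0 at T0 and at no later time, 39 were above 0 at T0 and after storage, and 5 at 0 at T0 were set aside by name. By time, 61 of the 117 names (52.1%) were above 0 at T24 only, 40 (34.2%) at T48 only and 16 (13.7%) at both.

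The tissue came from commercial carrots that were rinsed, disinfected in chlorine, peeled and shredded, and every library therefore comes from wounded tissue. By the labels the groups differ in storage: none (T0), 24 h (T24) or 48 h (T48) at 20 °C, with 2 libraries each. Neither the carrot cultivar nor the number of roots behind a library is stated in the sources used here. The library names of a time point differ only in their last part, and nothing says that they are separate extractions, so any p-value measures only the spread between libraries, which may be technical.

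MicroRNAs are short RNAs cut from the hairpin of a longer precursor, which guide a silencing complex to matching transcripts. In plants Dicer-like enzymes do the cutting and targets usually pair along nearly the whole miRNA. In animals Drosha and Dicer do it and pairing rests mainly on the seed near the 5′ end. Few if any families are shared by the kingdoms, and plant names are written without a hyphen before the number. In the deposited data the names chosen here carry a prefix for newly predicted miRNAs, left off in this text. The methods allow at most 1 mismatch in the alignment to miRBase, the catalogue of miRNAs. How close each carrot sequence is to the entry that gave its name was not tested. A name such as hsa-miR-889-3p is here a label that a carrot read or hairpin took from a human entry. It does not show that the human miRNA was present. The roles given below belong to the animal or viral miRNAs from which the labels were borrowed, and stand as background.

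Values are reads scaled to a library total of 1000000, named TPM in the deposited table, and no length enters them. Each value was a whole multiple of 1 read, which returned the reads behind it. The totals count only reads under the listed names, so the sequencing depth of a library is not known here. Shares of a library's reads are shares of these listed reads. Without storage the totals were 154758 and 174557 reads. After 24 h they were 127079 and 134312, and after 48 h 64886 and 199911. A name with a lone read would thus stand at 15.4 TPM in T48 library 1 and 5.00 TPM in T48 library 2. The smallest listed value was 2 to 4 reads in every library, so a listed 0 can stand for reads that fell under a reporting limit. In 3 of the 4 stored libraries a single name, oan-miR-1421ag-5p, held 46.8% to 54.7% of the reads, and it was at 0 in T48 library 1.

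Most of the 117 names were scarce and were seen once. In 90 of them a single stored library was above 0, in 21 there were 2 such libraries, in 6 there were 3, and in 0 all 4 were. The 5 names set aside are left out of these counts. Each of those 5 was above 0 in both T24 libraries, and some also in both T48 libraries. The 0 for all 4 libraries therefore follows in part from the choice of names and is not a result. The highest read number of a name had a median of 10 and ranged from 2 to 555. It was at most 10 reads for 61 names, at most 5 reads for 32, and over 50 reads for 14. At the edge of the choice, oni-miR-10809 entered with 2 reads (15.7 TPM) in T24 library 1, and bmo-miR-252-3p with 3 reads (15.0 TPM) in T48 library 2. Just outside it, hsa-miR-4775 had 5 reads (32.3 TPM) in T0 library 1 beside 3 and 7 reads (23.6 and 52.1 TPM) at T24, and pma-miR-430b had 5 reads (32.3 TPM) in T0 library 1 beside 28 reads (220 TPM) in T24 library 1. If a name had kept its highest stored share at T0, more than 3 reads would be expected in both T0 libraries for 115 of the 117 names and more than 10 for 72. These expected reads rest on the highest of 4 values of names chosen by the same values, which makes them too high. They do not test the absence at T0.

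**Figure D1:**
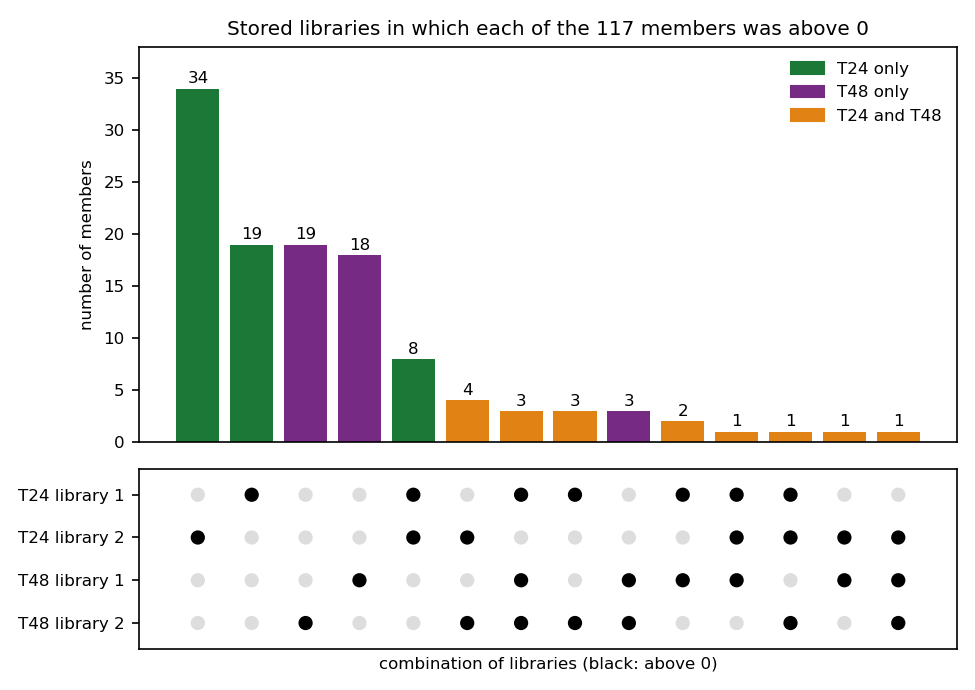
Number of the 117 names (vertical axis) for each combination of the 4 stored libraries in which they were above 0 (black dots), coloured by time of appearance. The 4 tallest bars, 34, 19, 19 and 18 names, are the single libraries, and the tallest bar for both libraries of a time point is 8 names.

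T24 library 2 held the most names. It had 50 of the 117 above 0, against 37 in T24 library 1, 29 in T48 library 1 and 34 in T48 library 2. As a part of all names above 0 in the library, this was 35.2% and 41.0% at T24 and 32.6% and 36.6% at T48, so the ranges of T24 and T48 overlapped. The reads under the 117 names together were 578 (0.455% of the library's listed reads, Wilson 95% interval 0.419 to 0.493) and 1439 (1.07%, 1.02 to 1.13) at T24. At T48 they were 964 (1.49%, 1.40 to 1.58) and 814 (0.407%, 0.380 to 0.436). These intervals cover counting error only, and can be too narrow even for that, since PCR reads are not independent molecules. The ranges of both times overlapped, since the lowest and the highest share were both from T48. With oan-miR-1421ag-5p left out of the totals, the shares were 1.00% and 2.17% at T24 and 1.49% and 0.766% at T48, so that T24 library 2 was highest and the ranges still overlapped. A single name, hsa-miR-889-3p, made up 38.6% of the members' reads in T24 library 2, and cbr-miR-54a-5p 34.6% in T48 library 1. T48 library 1 is also the library with the fewest listed reads and the stored library without oan-miR-1421ag-5p.

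**Figure D2:**
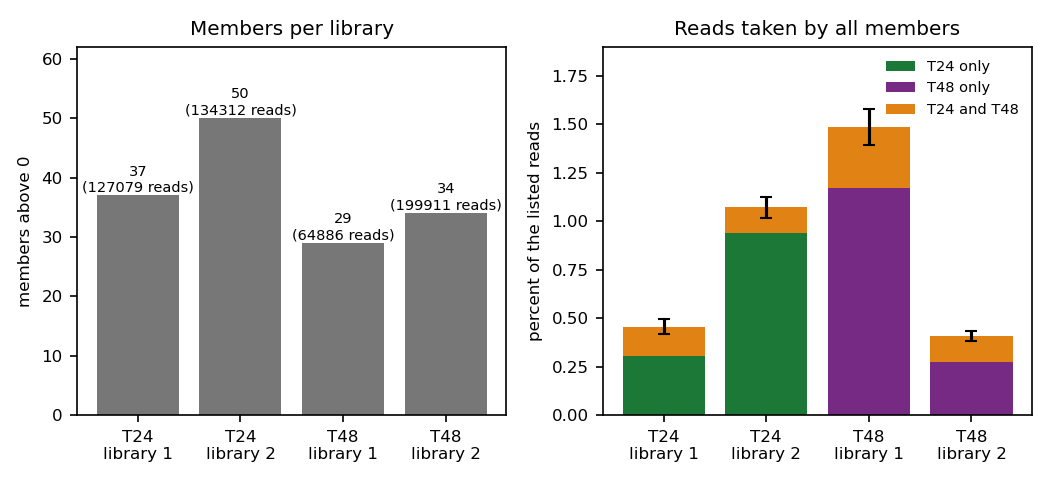
Left, number of the 117 names above 0 in each stored library, with its total of listed reads. Right, percent of the library's listed reads under these names, stacked by time of appearance, with Wilson 95% intervals of the sum (counting error only). T24 library 2 and T48 library 1 stand highest at 1.07% and 1.49%.

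Few of the names were present in both libraries of their time. At T24, 77 of the 117 names were above 0 in either library and 10 in both (13.0%). At T48 these numbers were 56 and 7 (12.5%). The 5 names of this kind set aside are not counted, and each was above 0 in both T24 libraries. Both shares are therefore lower than they would be with those 5. No name was set aside from the sets below, so the shares are not fully alike. Names of animal type that were also above 0 at T0 were in both libraries for 17 of 28 (60.7%) at T24 and 12 of 26 (46.2%) at T48. Their reads were higher, with a median of 25 and 35.5 reads in the higher library against 10 and 11 for the 117 names. Names of plant type that were at 0 at T0 were in both libraries for 2 of 21 (9.52%) at T24 and 4 of 21 (19.0%) at T48. For names with no species code at 0 at T0 it was 4 of 20 (20%) at T24 and 0 of 16 at T48. The median of these names in the higher library was 20.5 reads at T24 and at T48. The reverse choice, animal type at T0 only, gave 18 of 137 names (13.1%) in both T0 libraries with a median highest value of 13 reads. Low overlap was thus also seen in other sets of names chosen for 0 at another time. These shares are descriptions, and no difference between sets was tested. All 7 names found in both T48 libraries had the higher TPM in T48 library 1, where oan-miR-1421ag-5p was at 0 against 46.8% of the reads in T48 library 2, and the part of that name in this order was not tested.

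Libraries of different times also shared names. T24 library 1 shared 10 of the 117 names with T24 library 2 (27.0% and 20.0% of each library's names), and 7 with T48 library 2 (18.9% and 20.6%). The T48 libraries shared 7, and T24 library 2 shared 3 with T48 library 1 (6% and 10.3%), the fewest of any pair. Of the names present in 1 library of a pair, 61 of 67 at T24 and 36 of 49 at T48 would have had more than 3 reads in the other library at an equal share of its reads. For 6 names at T24 and 9 at T48 more than 50 reads would be expected there, where 0 are listed. All 9 at T48 were seen in T48 library 1, the library with the fewest listed reads. The equal share counts all listed reads of T48 library 2, of which oan-miR-1421ag-5p held 46.8%. With that name left out of the totals, fewer reads would be expected there. All these expected reads are taken from the library where a name was above 0, which makes them too high. They do not test whether the libraries of a time differ.

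**Figure D3:**
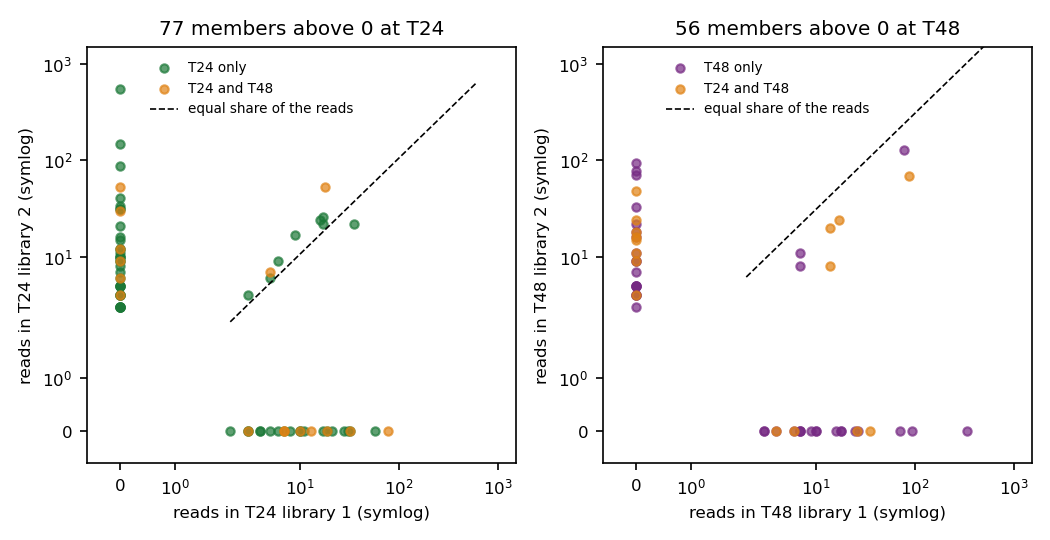
Reads of each name in library 1 (horizontal) and library 2 (vertical) of T24 (left) and T48 (right), on axes that are logarithmic above 2 reads and linear below. Points on the axes are names at 0 in a library; the dashed line marks an equal share of both libraries' reads, and 10 names at T24 and 7 at T48 lie away from the axes.

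Of the 7 names that passed 1000 TPM in a library, 5 were found in that library alone. At T24, hsa-miR-889-3p, named after a human miRNA of the imprinted DLK1-DIO3 cluster, had 555 reads (4132 TPM) in T24 library 2 and 0 in T24 library 1, where 525 reads would match the same share. At T48, cbr-miR-54a-5p, a name from the nematode Caenorhabditis briggsae, had 334 reads (5147 TPM) in T48 library 1 and 0 in T48 library 2. There 1029 reads would match the same share of all listed reads, and fewer with oan-miR-1421ag-5p left out of the totals. hsa-miR-889-3p and cbr-miR-54a-5p were at 0 in all other libraries too, so the highest values of the set rest on 1 library each. The same held for mmu-miR-5615-5p, a mouse name, with 149 reads (1109 TPM) in T24 library 2. It held for mdo-miR-7387-3p, an opossum name, with 94 reads (1449 TPM) in T48 library 1, and for aca-miR-5443, a name from the lizard Anolis carolinensis, with 71 reads (1094 TPM) in the same library. None of these 5 names has a second library in which its level could be compared.

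Smaller values of the same kind followed. At T24, dmo-miR-306-3p, a fruit fly name, had 87 reads (648 TPM) in library 2, and ppc-miR-8326-5p, from the nematode Pristionchus pacificus, had 57 reads (449 TPM) in library 1. At T48, bmo-miR-283-3p, a silkworm name, had 94 reads (470 TPM) in library 2. Over all names seen in a single library, the values ran from 15.7 to 449 TPM (median 78.7) for the 19 of T24 library 1 and from 22.3 to 4132 TPM (median 67.0) for the 34 of T24 library 2. They ran from 46.2 to 5147 TPM (median 154) for the 18 of T48 library 1 and from 15.0 to 470 TPM (median 45.0) for the 19 of T48 library 2. A name with more than 50 reads outside those chosen for naming, oan-miR-1400-5p, had 78 reads (390 TPM) in T48 library 2 and was picked out after its value was seen.

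Among names found at T24 only, 8 were above 0 in both T24 libraries, at 23.6 to 275 TPM. bta-miR-2285i, a cattle name, had 35 and 22 reads (275 and 164 TPM). cel-miR-58a-3p, named after an abundant Caenorhabditis elegans miRNA related to bantam, a growth regulator of flies, had 17 and 26 reads (134 and 194 TPM). hsa-miR-3615 had 17 and 22 reads (134 and 164 TPM). Their values of 0 at T48 follow from their class and are not a result. A viral name, ebv-miR-BART20-3p, belonged to the same set with 16 and 24 reads (126 and 179 TPM). The sea squirt name cin-miR-4092-3p had 9 and 17 reads (70.8 and 127 TPM), and the nematode name cbr-miR-2226-3p had 6 and 9 reads (47.2 and 67.0 TPM). The higher value was in library 2 for both, as it was for ebv-miR-BART20-3p. dme-miR-315-5p, named after a fly miRNA that acts on wingless signalling, had 5 and 6 reads (39.3 and 44.7 TPM). hsa-miR-4535 had 3 and 4 reads (23.6 and 29.8 TPM), the least of the 8.

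Among names found at T48 only, 3 were above 0 in both T48 libraries. The sea squirt name cin-miR-4158-5p was the deepest, with 77 and 127 reads (1187 and 635 TPM). Its reads were higher in library 2 but its share was higher in library 1, which has fewer listed reads. A second sea squirt name, cin-miR-4027-5p, had 7 and 8 reads (108 and 40.0 TPM), and nve-miR-2050-5p, from the sea anemone Nematostella vectensis, had 7 and 11 reads (108 and 55.0 TPM). By their class all 3 are at 0 at T24, and all 3 had the higher share in T48 library 1.

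**Figure D4:**
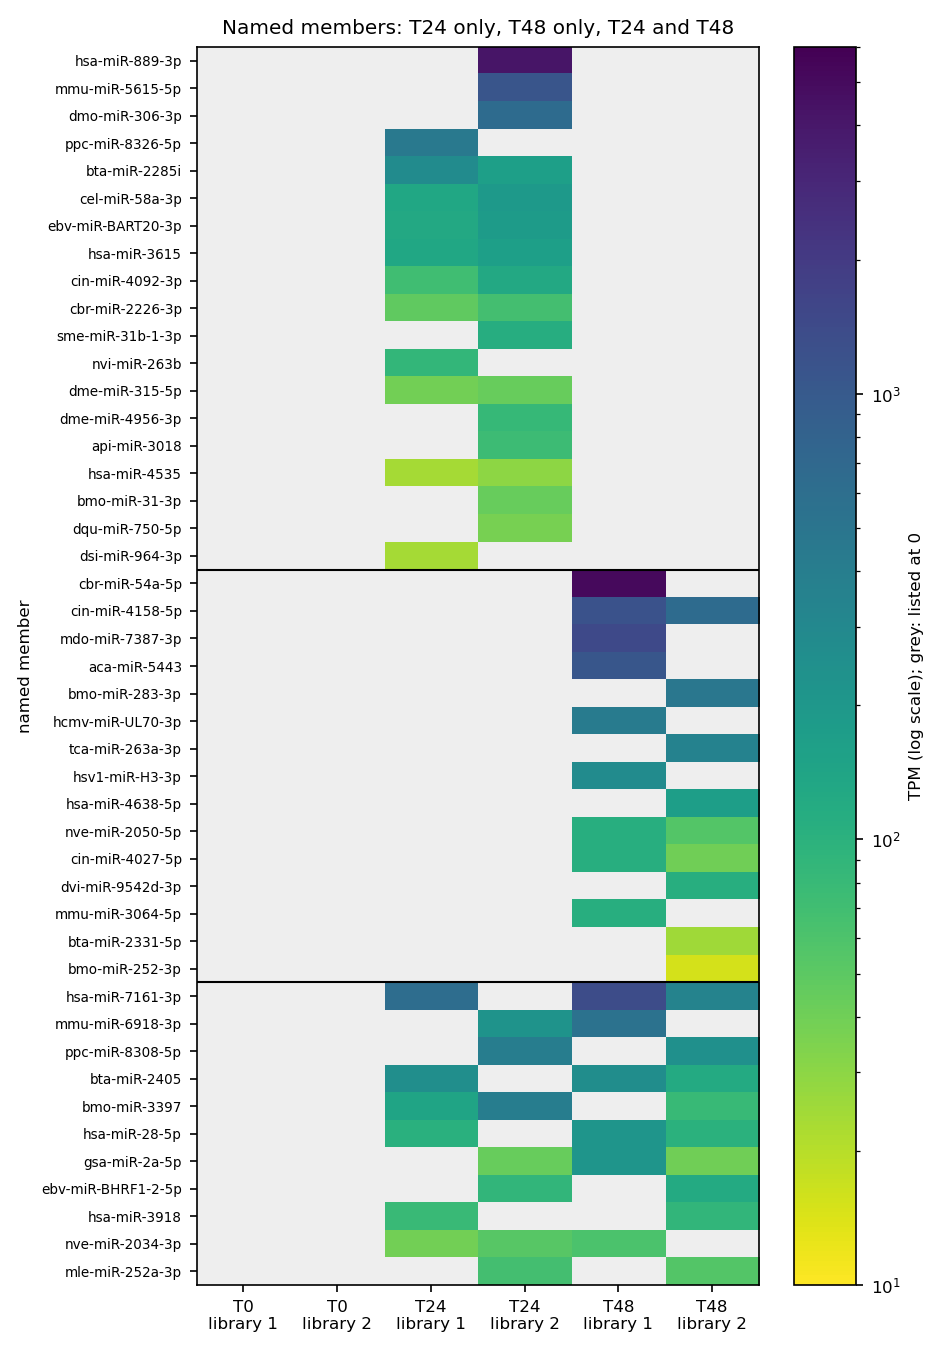
Heat map of the 45 named members (rows) in the 6 libraries (columns), coloured by TPM on a log scale with 0 in grey; black lines separate T24 only, T48 only and both times. Both T0 columns are grey by the choice of names, and most rows hold 1 coloured cell.

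Of the 16 names found at both times, 6 were above 0 in 3 of the 4 stored libraries, and each missed 1. The human name hsa-miR-7161-3p was the most abundant, with 78 and 0 reads at T24 (614 and 0 TPM) and 88 and 69 reads at T48 (1356 and 345 TPM). bta-miR-2405, a cattle name, had 32 and 0 reads at T24 (252 and 0 TPM) and 17 and 24 at T48 (262 and 120 TPM). hsa-miR-28-5p, whose human namesake lies within the LPP gene, had 13 and 0 reads at T24 (102 and 0 TPM) and 14 and 20 at T48 (216 and 100.04 TPM). These 3 names missed the same library, T24 library 2, and in each the value of T24 library 1 lay between the values of the T48 libraries.

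The other three missed different libraries. bmo-miR-3397, a silkworm name, had 18 and 53 reads at T24 (142 and 395 TPM) and 0 and 16 at T48 (0 and 80.0 TPM). gsa-miR-2a-5p, from a parasitic flatworm and named after the miR-2 family, which in flies represses genes that promote cell death, had 0 and 6 reads at T24 (0 and 44.7 TPM) and 14 and 8 at T48 (216 and 40.0 TPM). nve-miR-2034-3p had 5 and 7 reads at T24 (39.3 and 52.1 TPM) and 4 and 0 at T48 (61.6 and 0 TPM). For bmo-miR-3397 both T24 values lay above both T48 values, whereas for gsa-miR-2a-5p and nve-miR-2034-3p the groups overlapped.

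The remaining 10 names found at both times were above 0 in 1 library of each. Among these, ppc-miR-8308-5p had 53 reads (395 TPM) in T24 library 2 and 48 reads (240 TPM) in T48 library 2. mmu-miR-6918-3p had 30 reads (223 TPM) in T24 library 2 and 35 reads (539 TPM) in T48 library 1. Both names were in T24 library 2, but each was in a different T48 library.

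T48 was compared with T24 with limma on log2(TPM + 1) over the 260 names above 0 in at least 1 of the 4 libraries. The threshold was an unadjusted p no higher than 0.05 together with a 2-fold or larger change. Of all names tested, 28 were called (10.8%), 21 of them higher at T24 (8.08%) and 7 higher at T48 (2.69%). Of the 117 names, 11 were called (9.40%), a share near that over all names. The 8 called higher at T24 and the 3 called higher at T48 are those described above as present in both libraries of one time and at 0 at the other. All 28 names called in the table were at 0 at one of these times. The choice of names and their time classes rest on the same T24 and T48 values, so these calls restate the classes and add no evidence to them. Adjusted p-values (Benjamini-Hochberg, limma) of the 11 ranged from 0.131 to 0.275, and 0 passed an adjusted 0.05. The count of 11 became 2 with a replicate block, where 13 of all 260 names were called, and 29 to 46 when 1 library was left out, where 61 to 89 of 202 to 225 names were called, so the counts moved over the whole table.

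None of the 16 names found at both times was called. The change from T24 to T48 on the log2(TPM + 1) scale was 4.79 for hsa-miR-7161-3p (SE 3.80, limma adjusted p = 0.447) and −4.72 for bmo-miR-3397 (SE 2.79, limma adjusted p = 0.447). In both a library at 0 stands beside others above 0, and the standard errors are wide. The change was 3.86 for hsa-miR-28-5p (SE 2.88), 3.80 for gsa-miR-2a-5p (SE 2.63), 3.49 for bta-miR-2405 (SE 3.31) and −2.55 for nve-miR-2034-3p (SE 2.62). Without T24 replicate 2 the change of bta-miR-2405 was −0.50, and without T48 replicate 2 that of nve-miR-2034-3p was 0.44, so these directions rest on 1 library each. The other changes kept their sign but also shrank without 1 library. Without T24 replicate 2 the change was 0.16 for hsa-miR-7161-3p and 0.52 for hsa-miR-28-5p. It was 1.05 for gsa-miR-2a-5p without T24 replicate 1 and −1.55 for bmo-miR-3397 without T48 replicate 1.

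Some names that appeared after storage sat on a precursor already listed under another name. By the precursor positions listed for the names, 15 of the 117 lay on the same strand and over at least 88.2% of the longer precursor with another listed name, and 102 did not overlap one. These 15 formed 15 pairs, and in 0 of the 15 were both names above 0 in the same library. The same was 0 for all 30 such pairs of the table. For 9 of the 15 names the other name was above 0 at T0, so the precursor itself was not without reads before storage. Whether both names of a pair stand for the same mature sequence was not tested.

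The pair gsa-miR-2a-5p and ppc-miR-8348-5p, a nematode name, was the only one whose other name was above 0 in both T0 libraries. The first had 0 reads in both T0 libraries and 6, 14 and 8 reads in T24 library 2 and the T48 libraries, and the second had 22 and 18 reads at T0 and 0 in every stored library. Added up, the precursor stood at 142 and 103 TPM without storage. The T24 libraries had 0 and 44.7 TPM and the T48 libraries 216 and 40.0 TPM, so T0 and T48 overlapped. Overlapping sums were also seen for mmu-miR-3064-5p, a mouse name with 7 reads in T48 library 1, which alternated with hsa-miR-647, at 18 reads in T0 library 1, 10 and 21 at T24 and 18 in T48 library 2. Their sum was 116 and 0 TPM without storage, 78.7 and 156 TPM in the T24 libraries and 108 and 90.0 TPM in the T48 libraries.

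Other names alternated with a name of T0 library 1. bta-miR-2285i, at 275 and 164 TPM at T24, shared its precursor with ppy-miR-1305, an orangutan name, at 168 TPM (26 reads) in T0 library 1. hsa-miR-3918, at 78.7 TPM in T24 library 1 and 90.0 TPM in T48 library 2, shared it with the chimpanzee name ptr-miR-6132 at 149 TPM (23 reads). dme-miR-315-5p shared it with the salmon name ssa-miR-301c-5p, at 32.3 TPM (5 reads). The value of the other name in T0 library 1 lay between the T24 values in the first of these pairs, above the later values in the second and below the T24 values in the third. T0 library 2 was at 0 in all 3, and the T48 libraries were at 0 in the first and the third. bmo-miR-31-3p, named after an animal-wide family, had 6 reads in T24 library 2 and its partner gga-miR-1658-3p 12 reads in T0 library 1. bta-miR-2331-5p had 5 reads in T48 library 2 and ame-miR-3788-5p 6 reads in T0 library 1. dsi-miR-964-3p had 3 reads in T24 library 1 and a plant name, ptc-miR474c, 9 reads in T0 library 1. In a single case a precursor carried 3 names: api-miR-3018, an aphid name with 10 reads in T24 library 2, pal-miR-760-5p with 12 reads in T0 library 2 and tgu-miR-2962-3p with 7 reads in T0 library 1.

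**Figure D5:**
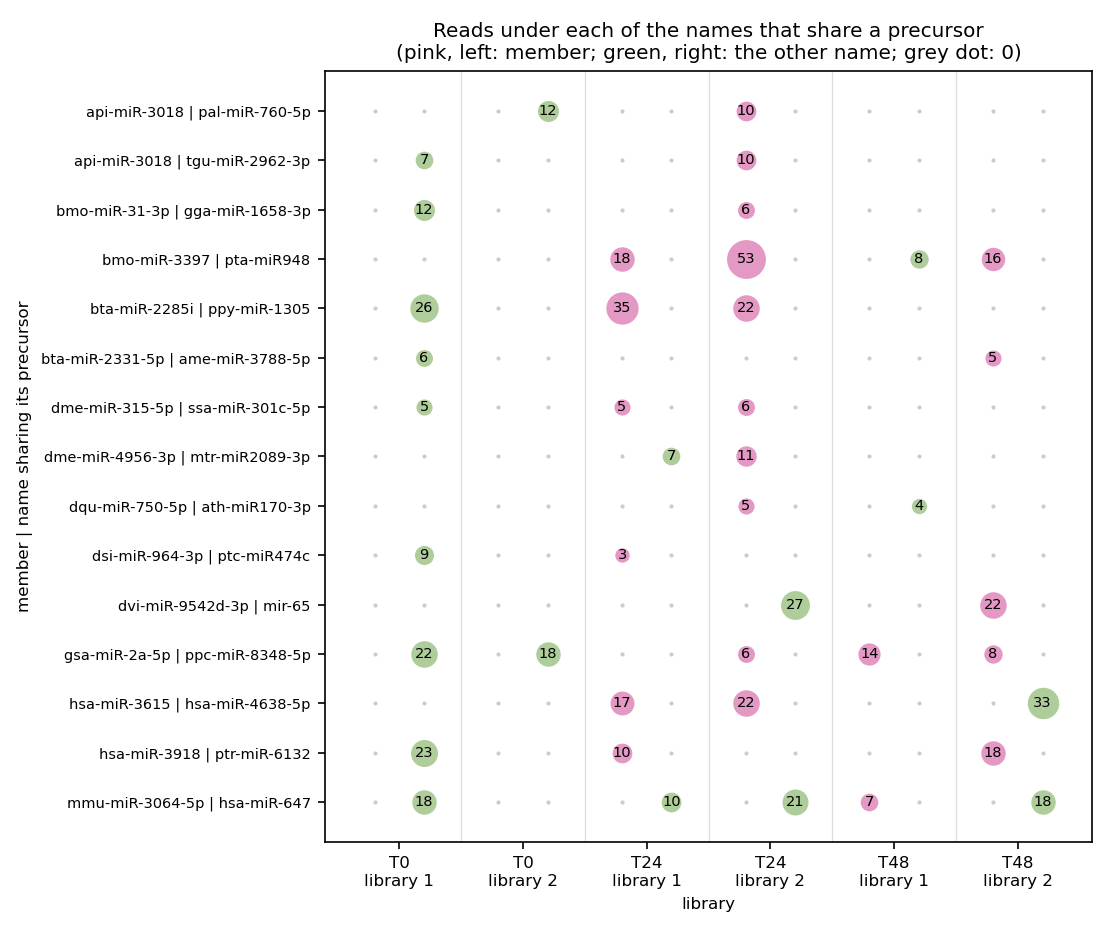
Reads in each library under the 2 names of a pair that share a precursor, the member at left in pink and the other name at right in green, with circle area growing with reads and grey dots for 0. No row has both colours in the same library.

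The last 6 names had a partner at 0 at T0. hsa-miR-3615, with 17 and 22 reads at T24, and hsa-miR-4638-5p, with 33 reads in T48 library 2, are both among the 117 and lie on 1 precursor. One was listed as T24 only and the other as T48 only, and their sum was 134 and 164 TPM in the T24 libraries and 0 and 165 TPM in the T48 libraries. bmo-miR-3397 alternated with the plant name pta-miR948, which had 8 reads in the one stored library (T48 library 1) where bmo-miR-3397 was at 0. Their sum was above 0 in all 4 stored libraries, at 142, 395, 123 and 80.0 TPM. dme-miR-4956-3p had 11 reads in T24 library 2 and mtr-miR2089-3p 7 reads in T24 library 1. dvi-miR-9542d-3p had 22 reads in T48 library 2 and mir-65, a name with no species code, 27 reads in T24 library 2. dqu-miR-750-5p, an ant name, had 5 reads in T24 library 2 and ath-miR170-3p, an Arabidopsis name, 4 reads in T48 library 1.

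With overlapping precursors added up, 107 precursors fitted the same choice, 54 at T24 only, 36 at T48 only and 17 at both. By this count 9 of the 117 names no longer qualified, 5 of them T24 only, 2 T48 only and 2 both. Over the 116 precursors that carry at least 1 of the 117 names, 11 were called between T24 and T48, beside 26 of 248 (10.5%) over the whole table.

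The names seldom shared a miRNA number. They carried 39 of the 74 species codes among the names of animal type, and 113 of the names held a miRNA number, with 110 different numbers. Vertebrate codes made up 72 (61.5%, against 56.9% of the other names of animal type), invertebrate codes 41 (35.0% against 39.2%) and viral codes 4 (3.42% against 3.31%). Human codes were 28 (23.9% against 11.0%). Names ending in 3p were 46 (39.3% against 29.3%) and in 5p 39 (33.3% against 39.8%). These shares are descriptions.

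A shared number did not always mean a shared pattern. miR-263, a family that protects sensory bristles from cell death in flies, occurred as nvi-miR-263b with 11 reads (86.6 TPM) in T24 library 1 and as tca-miR-263a-3p with 70 reads (350 TPM) in T48 library 2. miR-252 occurred as mle-miR-252a-3p with 9 reads (67.0 TPM) in T24 library 2 and 11 reads (55.0 TPM) in T48 library 2, and as bmo-miR-252-3p. The latter had 3 reads (15.0 TPM), also in T48 library 2. miR-31 occurred as bmo-miR-31-3p (44.7 TPM) and as the planarian sme-miR-31b-1-3p with 15 reads (112 TPM), both in T24 library 2, the only number whose 2 names shared their whole pattern. Between the 117 names and those present at T0, 4 numbers recurred. One was miR-286, as dvi-miR-286-5p with 41 reads in T24 library 2 and dme-miR-286-5p with 9 reads in T0 library 2 and 9 in T48 library 1, on precursors that do not overlap.

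Of the 4 viral names, 2 were in T48 library 1 alone. Besides ebv-miR-BART20-3p at T24, ebv-miR-BHRF1-2-5p, also labelled after Epstein-Barr virus, had 12 reads (89.3 TPM) in T24 library 2 and 24 reads (120 TPM) in T48 library 2. hcmv-miR-UL70-3p, labelled after human cytomegalovirus, had 27 reads (416 TPM) in T48 library 1. hsv1-miR-H3-3p, labelled after a herpes simplex miRNA that lies antisense to the ICP34.5 gene, had 18 reads (277 TPM) in the same library. As with the animal names, these are labels of carrot reads and do not show that a virus was present.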

How the data were processed

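Small RNA of 6 carrot libraries was analysed, 2 at each of T0, T24 and T48, mapped by the library names in the labels. The methods give cutadapt trimming, removal of reads under 18 nt or under a mean quality of 20, and the use of Bowtie2 and miRDeep2 to match reads to miRBase 22. A match allowed 1 mismatch, and a read could map to as many as 200 places. How a read matching several entries was assigned to a name is not given in the sources used here. The genome build of the precursor positions is not given in the sources used here, and positions served only to find precursors that overlap by at least 1 nt on 1 strand. The authors deposited RPM values under the name TPM, which sum to 1000000 per library. The file has 0 unused columns.

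The total of each library was taken as the whole number at which its values become whole reads (100% of values within 1e-06). A name of animal type has a species code and a hyphen after miR. Species codes were assigned by hand. The names and lists were chosen with earlier results of these data known. Named were names above 0 in at least 3 stored libraries or in both libraries of a time point, the 5 highest by mean TPM in each time class, viral codes, and names sharing a miRNA number or a precursor. T48 was compared with T24 using limma 3.58.1 in R 4.3.3 on log2(TPM + 1), over names above 0 in at least 1 of 4 libraries. The fit was tested on simulated data. T0 was compared with no test, since the choice used it. Other values and Wilson 95% intervals were computed in Python 3.11.15 with numpy 2.4.6, pandas 2.3.3, scipy 1.17.1 and statsmodels 0.14.6, and figures drawn with matplotlib 3.10.9. Alternatives were other pseudocounts (0.1 and 10), filters, scaling, a replicate block, limma's voom on the recovered reads, other thresholds, minimum reads and single libraries left out. The sum over overlapping precursors was chosen after seeing the data.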

Additional observations from a re-analysis of the deposited data

How the results depend on the processing

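The number of the 117 names called between T48 and T24 was 11, of 28 called over all names. It was 2 of 13 with a replicate block, 7 of 26 with voom on the recovered reads, 0 of 0 at an adjusted p of at most 0.05 and 107 of 221 at an adjusted p of at most 0.5. With 1 library left out it was 29 to 46, namely 46 of 89 without T24 replicate 1, 29 of 61 without T24 replicate 2, 31 of 71 without T48 replicate 1 and 30 of 83 without T48 replicate 2, where the lone library of a time is assumed to vary like the others. The replicate numbers were not shown to pair the libraries: the deviations of same-numbered libraries from their group means correlated at r = 0.066 across 260 names, which are not independent, with only 2 pairs. The range with 1 library left out was −7.89 to −1.55 for bmo-miR-3397, −0.50 to 7.48 for bta-miR-2405, 1.05 to 6.56 for gsa-miR-2a-5p, 0.52 to 7.21 for hsa-miR-28-5p, 0.16 to 9.42 for hsa-miR-7161-3p and −5.53 to 0.44 for nve-miR-2034-3p, and the sign turned for bta-miR-2405 without T24 replicate 2 and for nve-miR-2034-3p without T48 replicate 2.

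With at least 10 reads required, 63 names fitted the choice, 31 at T24 only, 23 at T48 only and 9 at both, and the libraries held 20, 25, 17 and 19. With both libraries of a time point required, 17 fitted the choice, 10 at T24 only, 7 at T48 only and 0 at both. Names in both libraries with at least 10 reads in each were 5 at T24 and 4 at T48. With 1 library left out, T24 only ranged from 27 to 69, T48 only from 21 to 48, both from 8 to 18 and all from 83 to 130. The lowest counts were T24 only without T24 replicate 2, T48 only without T48 replicate 2 and both times without T24 replicate 1 or T48 replicate 2. The share of reads was 1.00% and 2.17% at T24 and 0.766% in T48 library 2 with oan-miR-1421ag-5p left out of the total, and 0.393%, 0.658%, 0.971% and 0.344% without the most abundant of the 117 names. The causes were not tested. Thinned to the shallowest total, the libraries held 36.0, 48.6, 29 and 32.0 of the names, against 37, 50, 29 and 34. Here 1 read was enough to keep a name, whereas the smallest listed value in these libraries was 2 or 3 reads. The thinned numbers can therefore be too high, and they do not settle the part of depth.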
